A study of Homo sapiens with 16 samples.

Results

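This account follows 41 genes of DNA double-strand break and interstrand crosslink repair through the knockdown of TPX2 in IMR32 cells. They comprise homologous recombination, Fanconi anaemia, theta end joining and damage checkpoint genes, were listed by symbol, and were found by symbol among the 58787 Ensembl gene identifiers of a table of raw counts. All 41 are protein-coding and all 41 passed the filter on low counts. IMR32 is a human neuroblastoma line with amplified MYCN, labelled as neuroblast, and TPX2 encodes a spindle assembly protein that activates the kinase AURKA. The 16 libraries come from 4 groups of 4: a non-targeting small interfering RNA (siNTC) and 3 siRNAs against TPX2, si45, si46 and si47, each in the same parental line and, per the column names, at 48 h. All comparisons against siNTC therefore share 4 control libraries. The design text calls the 4 libraries of a group biological replicates, and nothing further is given on how the cultures were separated.

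Homologous recombination repairs a broken chromosome from its sister copy. The ends are resected to single strands, BRCA1, PALB2 and BRCA2 prepare the strand for pairing with the sister, and helicases and nucleases take the joint molecules apart. The Fanconi anaemia pathway unhooks crosslinked strands after a core complex has attached ubiquitin to FANCD2 and FANCI. Theta end joining, carried out by the polymerase POLQ, joins resected ends through short matching sequences and leaves small deletions. Many of these genes are transcribed mainly in S and G2 phase, when a sister chromatid is present, and E2F transcription factors act at a number of their promoters.

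Levels are given in CPM, counts scaled to a common library size with TMM factors. The kit reads the 3' end of a transcript, so levels were not divided by transcript length. How evenly the 3' ends of different genes were counted was not tested. Total counts ran from 5318159 to 7864343 per library, with a median of 5966582. TPX2 fell from 327 ± 27.1 CPM (SD, n = 4) in siNTC to 91.6 ± 19.8 in si45, 81.7 ± 14.3 in si46 and 71.5 ± 3.37 in si47 (two-sided exact permutation p = 0.0286 for each siRNA, the smallest that 4 against 4 libraries allow). si45 replicate 3 kept the most TPX2 of the knockdown libraries, at 121 CPM. All 14 neuroblast markers passed the filter, with a summed level of 6729 to 7150 CPM in siNTC and 7097 to 8649 CPM in the knockdown libraries. Of 7 Schwann cell markers, 1 (SOX10) had no count in any library and 1 passed the filter, with a summed level of 5.38 to 11.3 CPM. Of 8 blood and endothelial markers, 3 (CD3E, LYZ and HBB) had no count and 0 passed, with a sum of 0 to 3.05 CPM. The summed mesenchymal list lay at 278 to 350 CPM with the groups overlapping. In the mean of the 3 siRNAs 2 neuroblast markers (HAND2 and CHGA) rose and 1 (DBH) fell at an edgeR adjusted p under 0.05. Of all genes tested, 3.61% rose and 3.53% fell. The median log2 fold change of the 14 markers was 0.17, and 2 of the 14 had a negative value. The part of these marker levels in the results was not tested.

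Short promoter stretches of members that fell are shown first, because they were searched for the sites of cell cycle regulators. RefSeq promoters (GRCh38.p14, 250 bases before to 50 bases after a start) were found for 37 of the 41 genes. FANCD2, XRCC2, EXO1, FANCA and TOPBP1 hold the letters of an E2F-type site, and POLQ those of a cell cycle homology region (CHR). A further CHR match of POLQ, beginning at -230 from the start, is not shown. The following 30-base stretches are on the strand of the gene, with the match in capitals.
FANCD2, chr3:10026424-10026453, plus strand: cgtcgggcctgGCGGGAAAgtcgaaaacta
XRCC2, chr7:152676102-152676131, minus strand: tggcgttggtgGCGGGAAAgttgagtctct
EXO1, chr1:241848197-241848226, plus strand: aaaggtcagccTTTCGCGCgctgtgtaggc
FANCA, chr16:89816801-89816830, minus strand: actacaccgcgGCGGCAAAgccaaacgcaa
TOPBP1, chr3:133661930-133661959, minus strand: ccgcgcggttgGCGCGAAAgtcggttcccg
POLQ, chr3:121545968-121545997, minus strand: gggaggtttgagTTTGAAgactggcgggaa
The E2F-type letters searched, on either strand, were TTTCCCGC, TTTGGCGC, TTTCGCGC and TTTGCCGC. FANCD2, XRCC2, FANCA and TOPBP1 carry theirs as the reverse complement. In FANCD2, XRCC2, EXO1 and TOPBP1 the match begins within 21 bases of the start, on either side of it.

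Set against all promoters, the E2F-type letters were found in 7 of 37 members (18.9%), against 6.81% of the 10162 tested genes that have a promoter in the table. They were present in 5 of the 16 members with a promoter that fell in the mean of the 3 siRNAs and in 2 of the other 21, RMI1 and FANCC. With the window cut to the 250 bases before the start, 3 of 37 members (8.11%) held them, against 5.71% of tested genes. Of these, 1 was among the 16 that fell (6.25%) and 2 among the other 21 (9.52%), so the order of the groups turned, because the matches of FANCD2, XRCC2, EXO1 and TOPBP1 reach past the start. The CHR letters, TTTGAA or TTCGAA, were in 6 members (16.2%), against 15.3% of tested genes. CCAAT was in 18 (48.6%, against 43.8%) and the E-box CACGTG in 4 (10.8%, against 12.9%). Among the 16 that fell and the other 21, respectively, the CHR letters were in 2 and 4 genes, CCAAT in 6 and 12 and the E-box in 1 and 3. The CHR letters were also in BRIP1, which fell, and in HELQ, the member that rose under si47. BRCA1, BRCA2, BLM and CHEK1 fell and hold none of the E2F-type or CHR letters in these windows. A match is a description of the letters and not evidence of binding.

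As a group, the repair genes were lower after TPX2 knockdown. In the mean of the 3 siRNAs against siNTC, 17 of 41 (41.5%) fell and 0 rose at an edgeR adjusted p under 0.05. Of all 14193 genes tested, 3.53% fell and 3.61% rose. At an unadjusted edgeR p under 0.05, 24 were lower and 1 was higher, where 1461 and 1440 of all 14193 genes were. DESeq2 called 15 lower and 1, HELQ, higher, where it called 2.91% and 3.48% of all genes. The median log2 fold change of the 41 was -0.28, against -0.0011 over all genes tested, and 32 of 41 had a negative value. The 17 genes that passed ranged from -0.87 (POLQ) to -0.24 (TOPBP1) on the log2 scale. The count of 17 was 11 without siNTC replicate 1 (2.03% of all genes) and 11 without siNTC replicate 4 (2.01%). In bulk RNA, fewer cells in S and G2 phase and less RNA of these genes per cell cannot be told apart.

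Each siRNA was also compared with the controls on its own. si45 lowered 2 of the 41 genes (4.88%, against 0.324% of all genes), si46 lowered 9 (22%, against 1.25%) and si47 lowered 19 (46.3%, against 4.83%). The genes that fell under si45 were POLQ and FANCD2. Those under si46 were these and BRCA1, BRCA2, BRIP1, RAD51AP1, XRCC2, FANCA and EME1. si47 added BARD1, FANCE, FANCI, BLM, EXO1, RBBP8, MRE11, CHEK1, TOPBP1 and RMI2. No member rose under si45 or si46 by this test, where 1.01% and 2.14% of all genes rose. At an unadjusted edgeR p under 0.05, 1 and 1 rose, where 844 and 1106 of all genes did. DESeq2 called 0 and 0 higher, where 1.19% and 2.17% of all genes were. HELQ rose under si47 (1 of 41, against 4.91% of all genes). The si45 count was 0 without siNTC replicate 2 or 4 or si45 replicate 1, 2 or 4 (0.0831% to 0.221% of all genes). It was 1 without siNTC replicate 1 or 3, si46 replicate 1, 2 or 3, or si47 replicate 2 (0.194% to 0.36%). The si46 count was 4, 3 and 5 without siNTC replicates 1, 2 and 4 (0.644%, 0.692% and 0.697% of all genes). It was 6 without si46 replicate 2 (0.512%) and 2 without si46 replicate 4 (0.469%).

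**Figure D1:**
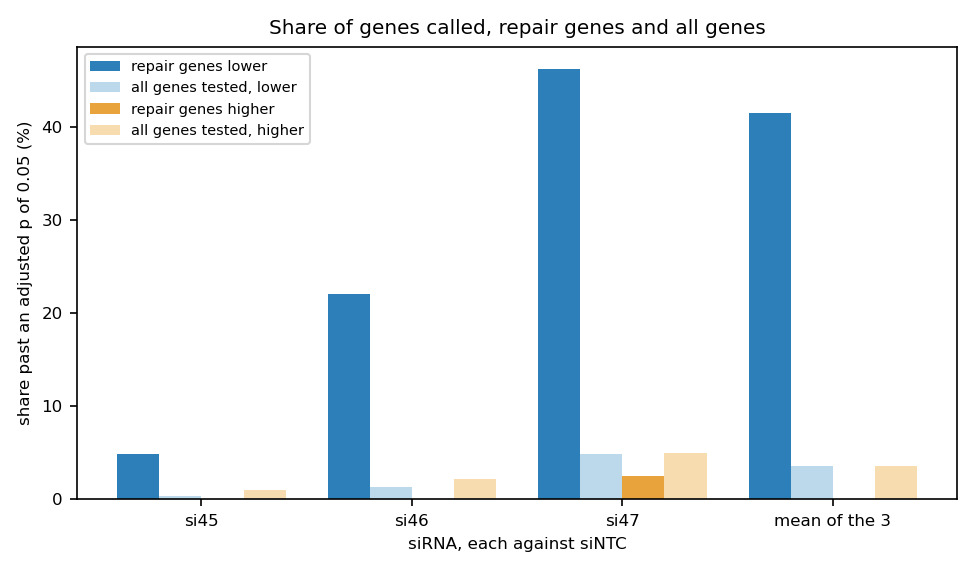
Share of genes past an edgeR adjusted p of 0.05 (vertical axis, percent) for each siRNA and for their mean against siNTC, with the 41 repair genes in full colour and all 14193 genes tested in pale colour. The repair genes that were lower reach 46.3% under si47 and 41.5% for the mean, where all genes lower reach 4.83% and 3.53%.

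POLQ, the polymerase of theta end joining, had the lowest fold change of the 41 members in the mean of the 3 siRNAs. Its 4 control libraries were at 44.6, 51.9, 38.6 and 45.6 CPM. The si45 libraries were at 33.7, 30.4, 25.3 and 29.1 CPM, the si46 libraries at 30.6, 29.5, 31 and 21.4, and the si47 libraries at 15.4, 24.1, 21.5 and 12.2. All 12 knockdown libraries lay below all 4 controls, and each si47 library lay below every si45 library. The group means were 65.6%, 62.3% and 40.5% of the control mean under si45, si46 and si47. In the mean of the 3 siRNAs the value was -0.87 on the log2 scale (SE 0.128, edgeR adjusted p = 2.02e-05), and the si45 value alone (-0.61, edgeR adjusted p = 0.0478) lost its call in 11 of its alternatives, for example without siNTC replicate 2 (edgeR adjusted p = 0.178). The POLQ gene lies on chromosome 3, 121431427 to 121546641 on the minus strand (GENCODE v29, GRCh38).

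HELQ, a helicase related in sequence to the helicase part of POLQ, was the member with the highest fold change in the same comparison. It is weakly expressed, with 17 to 73 counts per library. Its controls were at 6.57, 3.60, 5.48 and 2.95 CPM, and 10 of 12 knockdown libraries lay above all of them. The exceptions were si45 replicate 4 (4.73 CPM) and si46 replicate 2 (6.37 CPM). Under si47 it rose by 0.90 on the log2 scale (SE 0.283, edgeR adjusted p = 0.0376), a call lost without siNTC replicate 2 or 4 or si47 replicate 1 or 2. The mean over the 3 siRNAs was 0.74 (SE 0.240), and it did not pass (edgeR adjusted p = 0.0530), though it did in 5 of 22 alternatives. Over all 22 it ranged from 0.58 to 0.96.

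Of the 6 genes of the BRCA proteins and their partners, 5 fell in the mean of the 3 siRNAs, and the group median was -0.44. Of all genes tested, 3.53% fell in that comparison. Whether the roles differ from each other was not tested. BRCA1, a ubiquitin ligase that starts recombination at resected ends, was the most abundant of the 41 genes. Its controls were at 305, 294, 253 and 268 CPM, and the si47 libraries at 153, 181, 190 and 160. The si45 libraries lay at 200 to 257 CPM and the si46 libraries at 171 to 236, so that 11 of 12 knockdown libraries were below all controls. The fall was -0.48 (SE 0.0805, edgeR adjusted p = 1.40e-04). Its obligate partner BARD1 fell by 0.39 (SE 0.119, edgeR adjusted p = 0.0421), with controls at 60.3 to 72.5 CPM and knockdown libraries at 37.0 to 72.8. That BARD1 call was lost in 13 of 22 alternatives.

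BRCA2, which acts on resected single strands, differed between the siRNAs. It stood at 122, 119, 111 and 100 CPM in siNTC, at 96.9, 104, 103 and 91.2 in si45, at 94.3, 80.6, 92.9 and 65.9 in si46 and at 65.9, 62.2, 69.2 and 46.6 in si47. The si47 libraries lay below all si45 and all control libraries. Averaged over the siRNAs it fell by 0.51 on the log2 scale (SE 0.0907, edgeR adjusted p = 3.04e-04). PALB2, which bridges BRCA1 and BRCA2, ranged from 11.3 to 22.9 CPM among the controls and from 9.24 to 23.9 among the si47 libraries, and its mean value of -0.05 (SE 0.184) did not pass. BRIP1, a helicase bound by BRCA1, fell from 120 ± 13.3 CPM to 94.0 ± 11.0, 74.2 ± 16.2 and 68.1 ± 13.6 CPM (-0.61, SE 0.107, edgeR adjusted p = 4.18e-04). RAD51AP1, which stimulates strand pairing, lay between 112 and 129 CPM in the controls and between 60.8 and 104 CPM in the knockdown libraries, with no overlap (-0.39, SE 0.0847, edgeR adjusted p = 0.00247).

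Of the 5 genes of the paralog complexes, which assist strand pairing, 1 fell in the mean, where 3.53% of all genes tested did. XRCC2 was at 129, 132, 109 and 136 CPM in the controls and at 60.7, 71.5, 90.4 and 71.5 CPM with si47. The si45 libraries (87.6 to 121 CPM) and si46 libraries (83.7 to 104 CPM) overlapped with each other, and 11 of 12 knockdown libraries were below all controls. The 3 siRNAs together gave -0.51 (SE 0.0901, edgeR adjusted p = 2.58e-04). XRCC3 had a similar mean of -0.45 but a wider error (SE 0.142) and did not pass (edgeR adjusted p = 0.0510). It did pass in 6 of 22 alternatives, among them without si45 replicate 3 (edgeR adjusted p = 0.0105). RAD51C, a subunit shared by both paralog complexes, averaged 50.4 ± 3.87 CPM in the controls. Its means under the 3 siRNAs, in the order si45, si46, si47, were 54.5 ± 6.14, 57.4 ± 8.68 and 56.5 ± 3.43 CPM, and none passed. RAD51D (-0.11, SE 0.158) did not pass, and its annotated end lies within the readthrough gene RAD51L3-RFFL on the same strand. RAD51B had 6 to 27 counts per library and a mean value of -0.13 (SE 0.363), which did not pass. The DNA translocases RAD54L and RAD54B, the latter with 8 to 41 counts per library, had mean values of 0.11 (SE 0.227) and 0.09 (SE 0.337), and neither passed.

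**Figure D2:**
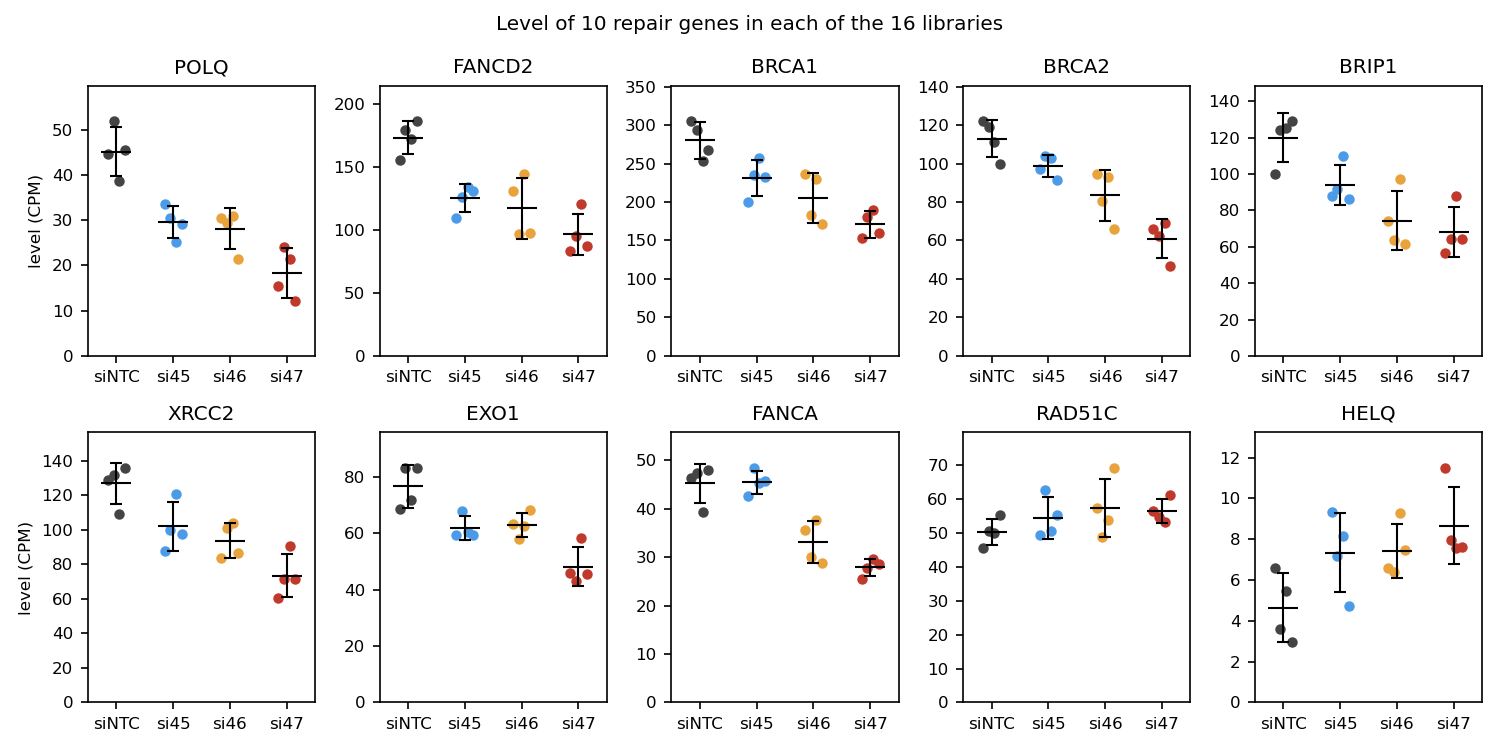
Level (CPM, linear axis from 0) of 10 repair genes in each of the 16 libraries, as points by group, with the group mean and SD (n = 4) in black. POLQ, FANCD2 and EXO1 have all 12 knockdown libraries below all controls, FANCA has its si45 libraries at the control level, and RAD51C and HELQ are the panels without a fall.

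In the Fanconi pathway both genes of the ubiquitinated pair fell. FANCD2 was at 155, 179, 172 and 186 CPM in siNTC. It stood at 109, 126, 134 and 131 CPM in si45, at 131, 96.4, 144 and 97.4 in si46 and at 83.5, 95.1, 120 and 86.9 in si47. No knockdown library reached the lowest control, and the group means were 72.2%, 67.8% and 55.7% of the control mean. In the mean of the 3 siRNAs the value was -0.62 on the log2 scale (SE 0.0949, edgeR adjusted p = 5.71e-05). FANCI, its partner, fell by 0.28 (SE 0.0884, edgeR adjusted p = 0.0473). It lay between 93.2 and 107 CPM in the controls and between 62.8 and 105 CPM in the knockdown libraries. The FANCI call was lost in 15 of 22 alternatives. The si45 call of FANCD2 (-0.47, edgeR adjusted p = 0.0398) was lost in 8 of its alternatives, for example without si45 replicate 1 (edgeR adjusted p = 0.220).

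The core complex, with its E2 enzyme UBE2T, had 2 of 9 genes that fell in the mean, FANCA and FANCL. Its group median was -0.22, and 3.53% of all genes tested fell in the same comparison. FANCA was at 46.3, 47.4, 39.3 and 48.1 CPM in the controls. The si45 libraries were at 42.7, 48.5, 45.3 and 45.8 CPM. The si46 libraries ran from 28.9 to 37.7 CPM, with the si47 libraries at 25.5, 27.8, 29.6 and 28.6 CPM. All 8 libraries of si46 and si47 were below all controls, whereas the si45 libraries overlapped the controls. Its mean of -0.38 (SE 0.098, edgeR adjusted p = 0.0122) missed the threshold when siNTC replicate 2 (edgeR adjusted p = 0.0579) or siNTC replicate 4 (edgeR adjusted p = 0.0615) was left out. FANCL, the ubiquitin ligase of the complex, fell by 0.34 (SE 0.105, edgeR adjusted p = 0.0393), a call lost in 10 of 22 alternatives.

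The other 7 genes of this group did not pass in the mean. FANCE, FANCB, FANCG, FANCM and FANCC ranged from -0.38 to -0.07, and FANCE passed under si47 alone (-0.54, edgeR adjusted p = 0.0439). UBE2T (0.26, SE 0.159) and FANCF (0.29, SE 0.159) had positive values. UBE2T was at 63.0 to 69.9 CPM in the controls and as far apart as 51.7 and 113 CPM among the si45 libraries.

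Of the 5 end resection genes, EXO1 and RBBP8 fell in the mean, where 3.53% of all genes tested did. EXO1, the exonuclease of long-range resection, fell from 68.6, 83.2, 71.7 and 83.3 CPM in siNTC to 45.9, 43.2, 58.3 and 45.5 CPM in si47. Its si45 libraries (59.3 to 68.0 CPM) and si46 libraries (58.0 to 68.2 CPM) all lay below the lowest control. In the mean of the 3 siRNAs the value was -0.42 on the log2 scale (SE 0.0876, edgeR adjusted p = 0.00178). RBBP8 (CtIP), which starts resection, likewise had its 12 knockdown libraries under the lowest control and fell by 0.31 (SE 0.0802, edgeR adjusted p = 0.0141), a call lost without siNTC replicate 1 (edgeR adjusted p = 0.0808). The MRE11, NBN and RAD50 complex, which senses and trims ends, had mean values of -0.25 (SE 0.0980), -0.21 (SE 0.0917) and 0.22 (SE 0.259), and none passed in the mean. MRE11 passed under si47 (-0.41, edgeR adjusted p = 0.0254). In siNTC the mean levels were 58.5 CPM for MRE11 (50.9 to 72.7), 84.8 for NBN (75.3 to 90.1) and 4.15 for RAD50 (3.47 to 4.81).

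Among the genes that take joint molecules apart, BLM and EME1 fell. BLM, the helicase of the dissolvase, ranged from 112 to 131 CPM in the controls, from 82.0 to 114 with si45, from 87.4 to 105 with si46 and from 74.2 to 90.7 with si47. Its fall was -0.39 (SE 0.0821, edgeR adjusted p = 0.00202). Its partners RMI1 and RMI2 had a mean of -0.35 each and did not pass (edgeR adjusted p = 0.0551 and 0.112), while RMI2 passed under si47 (-0.55, edgeR adjusted p = 0.0316). EME1, the partner of the nuclease MUS81, was at 43.5 to 51.0 CPM in the controls and at 25.7 to 49.6 CPM in the knockdown libraries, 11 of 12 of them below all controls. It fell by 0.44 (SE 0.114, edgeR adjusted p = 0.0128), a call lost without siNTC replicate 1 (edgeR adjusted p = 0.0699). MUS81 itself averaged 16.3 ± 4.88 CPM with siNTC and 19.4 ± 8.41 with si47 and did not pass (0.22, SE 0.200).

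In the checkpoint group, CHEK1 and TOPBP1 fell and the apical kinases did not pass. CHEK1, the effector kinase of ATR, was at 31.3, 40.7, 37.4 and 44.2 CPM in the controls and at 22.5, 27.0, 23.0 and 24.0 CPM with si47. 9 of 12 knockdown libraries were below all controls, and the mean was -0.48 (SE 0.113, edgeR adjusted p = 0.00615). That call was lost without siNTC replicate 4 (edgeR adjusted p = 0.0614). TOPBP1, which activates ATR, fell by 0.24 (SE 0.0768, edgeR adjusted p = 0.0455), a call lost in 15 of 22 alternatives. ATM, ATR and CHEK2 had mean values of -0.12 (SE 0.11), -0.10 (SE 0.121) and 0.08 (SE 0.187). CHEK2 has many annotated pseudogene copies, BRCA1, FANCD2, RBBP8, MRE11 and RAD51AP1 have one or more, and how reads shared with a copy were counted is not given in the sources used here.

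**Figure D3:**
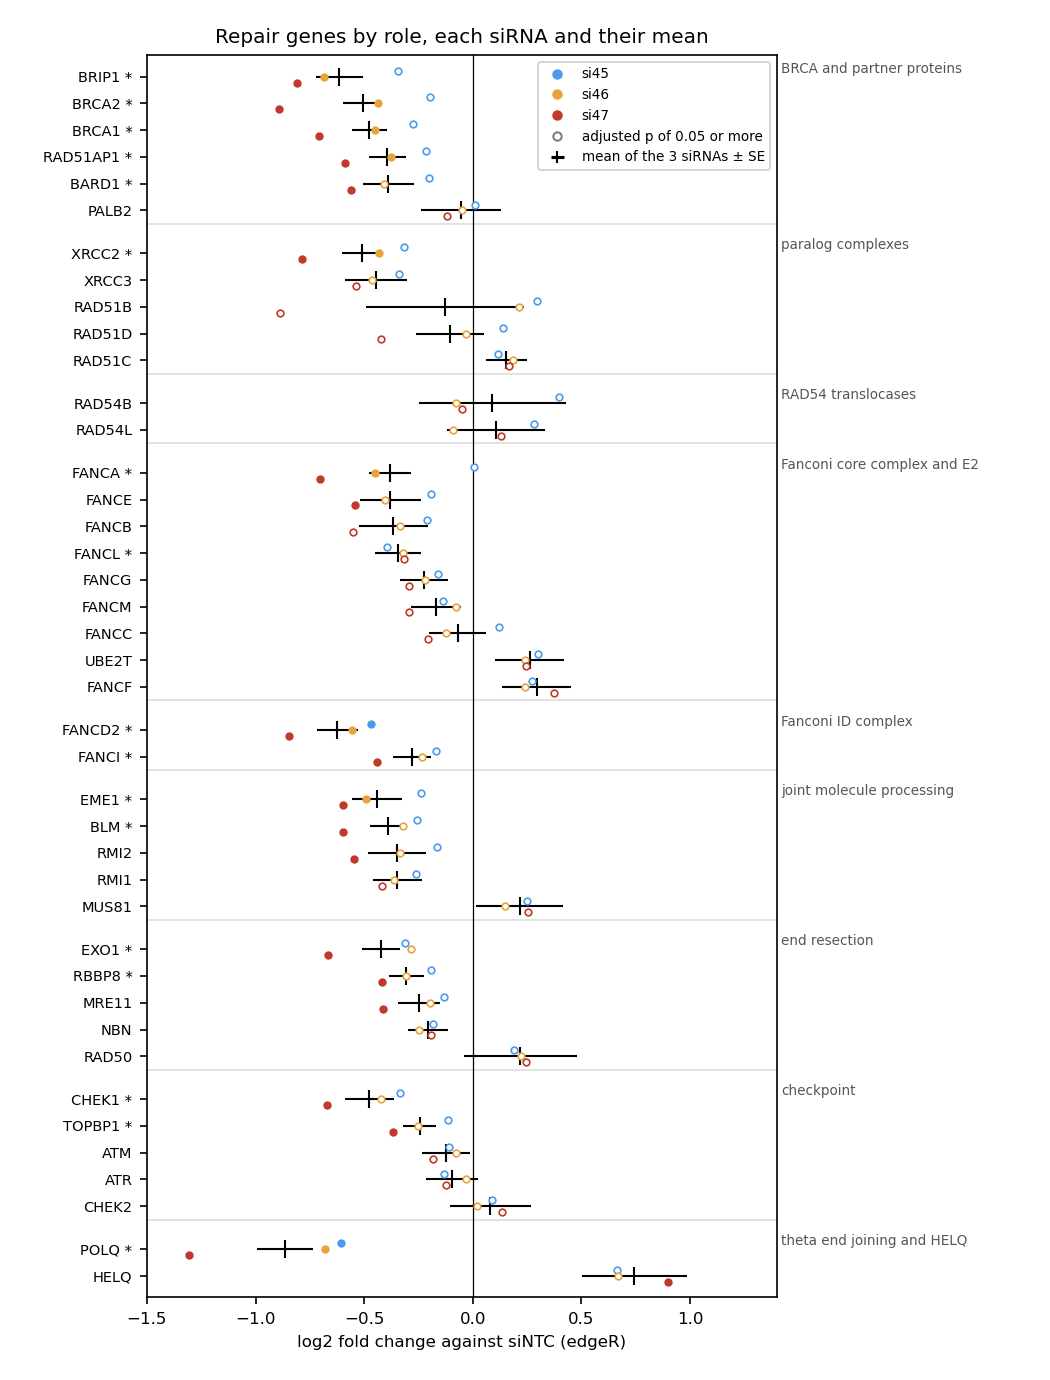
Log2 fold change against siNTC (horizontal axis, edgeR) of the 41 repair genes, grouped by role, with a point for each siRNA (filled where the adjusted p was under 0.05) and a black bar for the mean of the 3 siRNAs with its SE. A star marks the 17 genes that passed in the mean, which run from -0.87 for POLQ to -0.24 for TOPBP1, and HELQ lies farthest to the right.

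Across the 17 genes that fell, 5 had all 12 knockdown libraries below all 4 controls: RAD51AP1, FANCD2, EXO1, RBBP8 and POLQ. This is 12.2% of the 41, where 1.03% of all genes tested showed this pattern. No member had all 12 knockdown libraries above the controls, against 1.49% of all genes. The calls of 9 genes were kept under all 22 alternatives that give a value for each of them: POLQ, FANCD2, BRCA1, XRCC2, BRCA2, BRIP1, EXO1, BLM and RAD51AP1. For 13 of the 41 genes another gene covers the annotated 3' end, in 12 of them on the opposite strand (among the falling genes FANCA, FANCD2, FANCI, FANCL, CHEK1 and EME1). Strand use in the counting is not given in the sources used here, so reads of FANCA and ZNF276, or of EME1 and LRRC59, might not be separated.

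The siRNAs were then compared with each other directly, without the control means. Between si47 and si45, BRCA2 and FANCA were lower under si47, by 0.70 (SE 0.116, edgeR adjusted p = 0.00239) and 0.71 (SE 0.124, edgeR adjusted p = 0.00386) on the log2 scale. This is 2 of 41 members (4.88%), where 0.0986% of all genes were lower and 0.0705% higher. By DESeq2 0 members were higher (0.721% of all genes), and 0 at an unadjusted edgeR p under 0.05 (724 of all genes). All 4 si47 libraries were below all 4 si45 libraries for both genes, and both kept the call in every alternative that was run. Same-numbered si45 and si47 libraries deviated together from their group means in all 4 pairs (r = 0.12 to 0.242 across genes). With the replicate number as a block, 10 members were lower under si47 than under si45, and the share of all genes lower was then 1.49%. They were BRCA1, BRIP1, RAD51AP1, XRCC2, FANCD2, BLM, EXO1 and POLQ besides those named. POLQ was lower by 0.70 (SE 0.170) without the block and did not pass (edgeR adjusted p = 0.0655). The count was 9 without si47 replicate 3, where 0.636% of all genes were lower, and 4 without si45 replicate 1, where 0.173% were.

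No member differed between si46 and si45, where 0.0141% of all genes were lower under si46 and 0.0141% higher. At an unadjusted edgeR p under 0.05, 3 members were lower and 0 higher, where 277 and 305 of all genes were. DESeq2 called 0 members, and 0.0644% of all genes in each direction. Between si47 and si46 no member passed in edgeR, where 0.0282% of all genes were lower under si47 and 0.0211% higher. Unadjusted, 8 members were lower and 0 higher, where 546 and 488 of all genes were. DESeq2 called 1, BRCA2 (-0.46, DESeq2 adjusted p = 0.0489), where 0.4% of all genes were lower and 0.277% higher. The order of the group means was the same for most members: 27 of 41 (65.9%) decreased from si45 to si46 to si47, against 20.4% of all genes tested, and 30 (73.2%) were lowest in si47, against 36.0%. TPX2 itself had the same order of group means, with si45 replicate 3 above the other si45 libraries.

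Proteins that work as a pair were compared by the log2 ratio of their levels in each library, over 13 pairs. The ratio of XRCC3 to RAD51C differed by -0.59 between the 12 knockdown and 4 control libraries (two-sided exact permutation p = 0.0115), that of FANCD2 to FANCI by -0.35 (exact p = 0.0198), that of XRCC2 to RAD51D by -0.40 (exact p = 0.0308) and that of EME1 to MUS81 by -0.67 (exact p = 0.0357). None of the 13 passed after Benjamini-Hochberg adjustment over the pairs (adjusted p = 0.116 for each of these 4 exact permutation tests). Without si45 replicate 3, the ratio of XRCC3 to RAD51C passed (-0.66, exact permutation test, adjusted p = 0.0381). This was the 1 leave-one-out result of the ratios that changed, and 207 stayed the same. The pairs were added after the data were seen. For EME1 to MUS81, 10 of 12 knockdown libraries lay under the lowest control ratio, with the control libraries spread from 1.18 to 2.01. The control libraries of XRCC3 to RAD51C were spread from -1.02 to -0.28, those of FANCD2 to FANCI from 0.55 to 0.99 and those of XRCC2 to RAD51D from 2.29 to 2.83. BARD1 to BRCA1 differed by 0.08 (exact permutation p = 0.618) and RMI2 to RMI1 by 0.00 (exact permutation p = 0.996). The ratio of CHEK1 to ATR differed by -0.39 (exact permutation p = 0.0731) and that of MRE11 to RAD50 by -0.41 (exact permutation p = 0.0544).

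**Figure D4:**
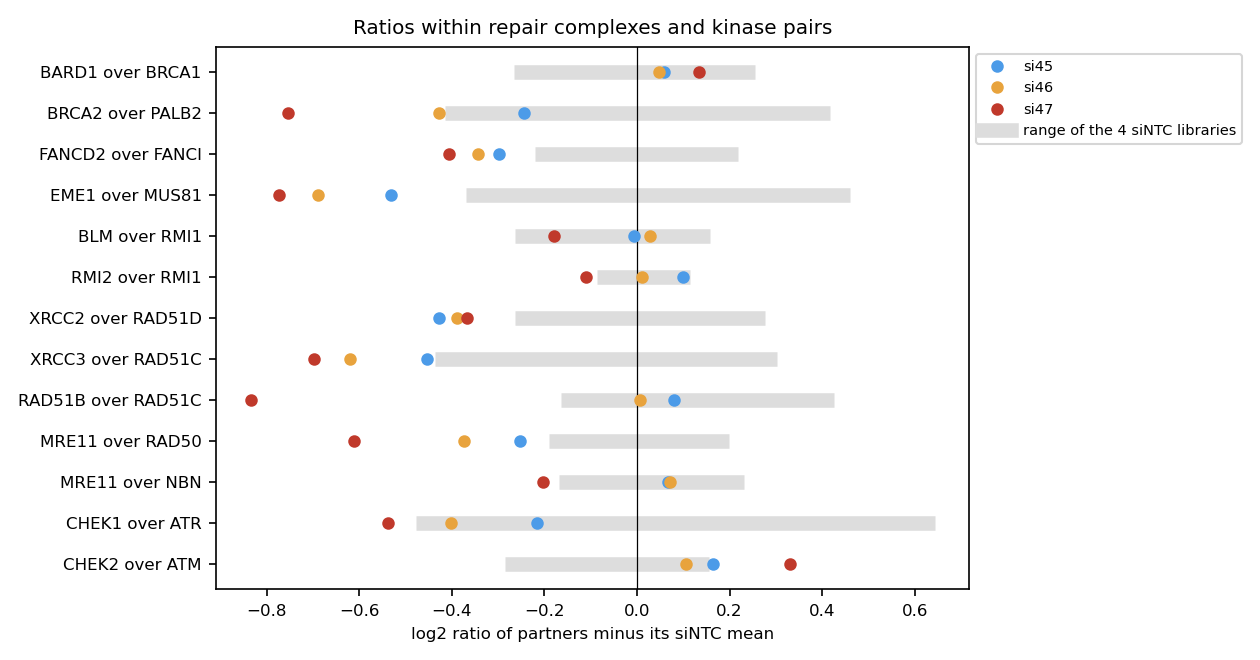
Log2 ratio of the levels of 13 partner pairs minus its siNTC mean (horizontal axis), as a point for the mean of each siRNA group, with a grey bar for the range of the 4 siNTC libraries. The 3 siRNA means of EME1 over MUS81, FANCD2 over FANCI, XRCC2 over RAD51D, XRCC3 over RAD51C and MRE11 over RAD50 lie to the left of the control range, and no pair passed after adjustment over the 13.

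Of 69 further genes of these pathways 68 were tested. In the mean of the 3 siRNAs 11 fell and 0 rose, where 3.53% and 3.61% of all genes did, and their median was -0.11. Those with the lowest p were MCM8 (-0.47), CLSPN (-0.46), RIF1 (-0.36), USP1 (-0.37), PAXX (-0.40) and DNA2 (-0.49). MCM8 is a helicase of recombination, CLSPN (claspin) carries the signal from ATR to CHEK1, RIF1 restrains resection, USP1 removes ubiquitin from FANCD2, PAXX serves classical end joining and DNA2 is a resection nuclease. By subgroup, 3 of 20 recombination genes, 1 of 12 Fanconi genes, 3 of 14 classical end joining genes, 2 of 4 alternative end joining genes and 2 of 18 checkpoint and chromatin signalling genes fell.

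Cell cycle genes moved with the repair genes. Of 38 S phase genes that are not among the 41, 22 fell and 0 rose in the mean (median -0.34). Of 53 G2 and mitosis genes 28 fell and 0 rose (median -0.27). In the same comparison 3.53% of all genes fell and 3.61% rose. USP1, CLSPN and TIPIN are in both the S phase list and the further repair genes. Of 31 p53 target genes tested, 26 rose and 0 fell (median 1.33). In each library, the median difference of the 41 repair genes from the siNTC mean was -0.19 to -0.09 in si45, -0.27 to -0.19 in si46 and -0.49 to -0.34 in si47, against -0.03 to 0.07 in siNTC, so that no knockdown library overlapped the controls. The S phase medians ran from -0.27 to -0.13, from -0.36 to -0.22 and from -0.60 to -0.27 in the same groups. In si47, replicate 3 was the highest of its group for both lists (-0.34 and -0.27). The part of the cell cycle lists in the fall of the repair genes was not tested.

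**Figure D5:**
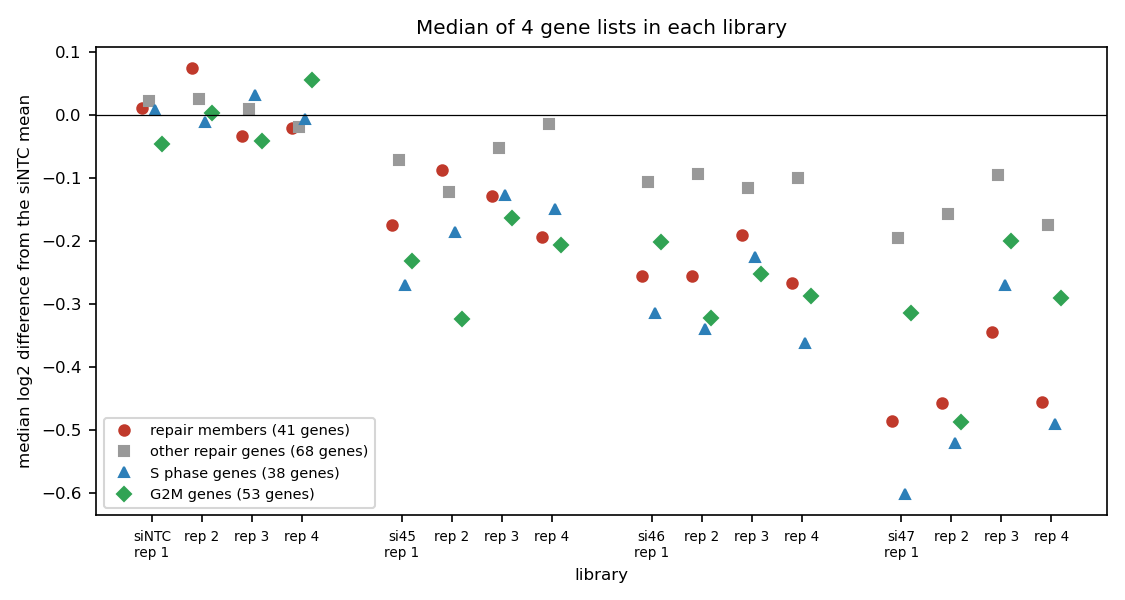
Median log2 difference from the siNTC mean (vertical axis) of the 41 repair genes, 68 further repair genes, 38 S phase genes and 53 G2 and mitosis genes in each of the 16 libraries. The repair genes lie between -0.49 and -0.34 in si47 and between -0.03 and 0.07 in siNTC, and the further repair genes lie above them in all si46 and si47 libraries.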

How the data were processed

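RNA of 16 IMR32 libraries was read from transcript 3' ends with Lexogen's QuantSeq kit. The authors deposited raw counts per Ensembl gene, whole numbers that were not normalized. The submitters' processing notes name GRCh38, FastQC 0.11.7, STAR 2.7.2b, edgeR 3.36.0 and limma 3.50.3 without roles; counter, annotation release, strand setting and use of molecular identifiers are not given in the sources used here.

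Counts were tested with edgeR 4.0.16 (R 4.3.3): genes kept by filterByExpr (at least 10 counts, 15 in total), TMM scaling, quasi-likelihood tests in 1 fit of all 16 libraries, and Benjamini-Hochberg adjustment over the 14193 genes tested, with a threshold of 0.05. The scripts were tested on simulated data. Of genes simulated at -0.5 on the log2 scale, 55.7% were recovered in the mean and 32% to 37.1% per siRNA. A gene that did not pass may therefore still have changed. DESeq2 1.42.0, other scalings, other filters, a replicate block and leaving out each library were alternatives. Partner ratios, on log2(CPM + 0.5), were added after the data were seen. Members, roles, lists and the named genes (all 41 members; 6 further repair genes with the lowest p in the mean) were chosen with earlier results of these data known. Same-numbered libraries deviated together in every pair (r over 0.1) between si45 and si47. Between the other groups some pairs did and some did not. There the lowest r per comparison was 0.0188 to 0.0854 and the highest 0.112 to 0.247. Within-group library pairs differed by more than sampling noise (chi-square per degree of freedom 4.36 to 9.8), so none was a duplicate.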

Additional observations from a re-analysis of the deposited data

Results flagged for a closer look

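BRCA2 and FANCA differed between siRNAs by a direct test, with log2 values of -0.70 and -0.71 for si47 minus si45 (edgeR adjusted p = 0.00239 and 0.00386).

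A library standing apart from the other 3 of its group was found in 11 of 168 groups of 4, where chance flags about 1 in 20 (8.4 groups). Among the controls, FANCB was at 18.7 CPM in siNTC replicate 3 (others 26.0 to 27.4) and RBBP8 at 103 CPM in siNTC replicate 1 (others 93.8 to 95.2). In si45, EXO1 was at 68.0 CPM in replicate 2 (others 59.3 to 60.5), and in replicate 1 NBN was at 86.5 CPM (others 70.0 to 71.5) and MUS81 at 22.8 CPM (others 17.8 to 18.5). In si46, RAD50 was at 3.46 CPM in replicate 2 (others 5.22 to 5.40), POLQ at 21.4 CPM in replicate 4 (others 29.5 to 31), and the median log2 difference of the 41 genes at -0.19 in replicate 3 (others -0.27 to -0.26). In si47, HELQ was at 11.5 CPM in replicate 1 (others 7.56 to 7.98), and in replicate 4 RAD50 was at 6.60 CPM (others 4.20 to 4.56) and ATM at 24.6 CPM (others 36.5 to 38.8).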

How the results depend on the processing

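No result reversed. Of the 17 genes that fell in the mean of the 3 siRNAs, 9 kept the call under all 22 alternatives. The cause of the changes below was not tested. With no low-count filter, 7 members were lower in si47 than in si45 (0.304% of all genes) and 2 lower than in si46 (0.0725%). With at least 10 counts in every library, si45 lowered 0 (0.289% of all genes). With an adjusted p under 0.01, si45 lowered 0 (0.134% of all genes), si46 3 (0.331%) and the mean 10 (1.35%), and si47 raised 0 (2.54%). Fitted on only the groups compared, si47 raised 0 (4.86% of all genes). DESeq2 gave 1 higher in the mean (3.48% of all genes), 5 lower in si47 than in si45 (1.3%) and 1 lower than in si46 (0.4%). In the 250 bases before the start, E2F-type letters were in 3 members (1 past the threshold) and the E-box in 2. For the E2F-type letters the order of the falling and the other members turned.

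With the replicate number as a block, si45 lowered 4 members (1.71% of all genes) and si46 14 (3.43%), the mean had 1 higher (6.26%), and si47 was lower than si45 in 10 (1.49%) and than si46 in 2 (0.416%). The all-gene counts rose in these fits too. Leaving out 1 library gave 11 to 18 lower (2.01% to 4.78% of all genes) and 0 to 1 higher (2.32% to 4.8%) in the mean. It gave 0 to 2 lower for si45 (0.0831% to 0.946%) and 2 to 9 for si46 (0.469% to 1.54%). For si47 it gave 16 to 20 lower (2.81% to 5.71%) and 0 to 1 higher (3.57% to 5.79%). For si47 against si45 it gave 2 to 9 lower (0.0414% to 0.636%). RAD51B, RAD54B, RAD50 and HELQ have few counts, which limits their precision.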
